A study of Mus musculus with 22 samples.

Results

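H3K27me3 peaks inside introns of mouse embryonic retina were compared between Jarid2 conditional knockouts (cKO) and controls. A peak was taken as intronic when the deposited annotation text placed it in an intron, and peaks on the X chromosome were left out because the animals of one batch were of both sexes. This gave 2385 intronic peaks of 19034 peaks in all (12.5%), in 1391 host genes, and 91 X-linked intronic peaks were set aside. Of the 2385, 837 lay in the first intron of the named transcript (35.1%) and 1548 in another intron. The annotation reserves the first 3 kb around a start site for promoters, so the nearest intronic peak was 3002 bp from the transcription start site (TSS) of its assigned gene. The median distance was 15.8 kb, and the median width was 1881 bp, from 601 to 39291 bp. The host gene is the gene whose transcript holds the intron. The gene that the deposited table assigns by nearest TSS was the same for 54.4% of the intronic peaks.

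All retinas were taken at E18.5 (embryonic day) from C57BL/6 mice, with both retinas of an animal in 1 sample, and Cre was induced with tamoxifen (75 µg per g) at E10.5. The 5 cKO animals were Jarid2 fl/fl; Rx-cre, in which Cre acts from a retinal progenitor promoter, so that cells outside that lineage would keep the gene. Of the 5 controls, replicate 1 was Jarid2 fl/+; Rx-cre, replicates 2, 4 and 5 were fl/+ without Cre, and replicate 3 was fl/fl without Cre. The protocol text writes the driver as Rax-CreERT2 and gives fl/fl for the controls, and the genotypes of the individual samples were used here. Batch 1 held 2 controls and 2 cKO animals of both sexes from a single litter, and batch 2 held 3 and 3 male littermates with 2 technical libraries each. An animal held 1688368 to 2864080 reads in peaks, of which 75408 to 141697 fell in intronic peaks. No intronic peak lay in Jarid2 itself, so these peaks do not check the deletion. Promoter H3K27me3, which marks silent genes, was checked against the tissue label. Of 9 retinal regulators, 6 had no promoter peak, among them Rax, Six3, Six6, Sox2 and Crx, whereas 5 of 5 mesenchyme markers had one, at a median of 32.7 CPM per kb in controls. Markers of lens (1 of 3 with a promoter peak), vessels (1 of 4), microglia (1 of 4) and pigment epithelium (2 of 4) did not stand apart from the retinal ones, so this check separates retina from mesenchyme only.

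H3K27me3 is written by Polycomb repressive complex 2 (PRC2) and is read as a mark of repressed genes. JARID2 is an accessory subunit that binds nucleosomes and DNA and helps the complex to reach and act on chromatin. PRC2 is recruited chiefly at CpG islands, which lie mostly at promoters, and the mark then spreads from there over neighbouring nucleosomes. Peaks deep in introns may thus lie away from CpG islands, but their CpG content was not read here.

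The following stretches of sequence are single examples and do not test this contrast, since the sequence of the peaks themselves was not read. Each is 300 bases around a RefSeq transcript start (GRCm38.p6, the assembly of mm10). It is written on the strand of that transcript with every CG in capitals. Of 32851 such start windows, 30 lay wholly inside an intronic peak, in 23 peaks, with a median of 5 CG against 7 for all windows. Among these, 5 lay in peaks that fell in cKO, with a median of 2, and those of the 3 peaks with the most control reads are shown. They are starts of the predicted transcripts Gm39289, Gm52870 and Gm46347, which lie inside the introns of Cntn5, Foxp1 and Hdac9. The promoter of Nxph1 is set beside them because its promoter peak and its intronic peak behaved differently in the same animals. The windows at Cntn5, Foxp1 and Hdac9 held 4, 2 and 2 CG, as many or more of which were found in 68.6%, 85.9% and 85.9% of all windows. The Nxph1 promoter held 21, a number reached by 24.8% of windows. A start of Gm3752, inside an intronic peak that was not called, held 29.
Cntn5 intron, Gm39289 start, chr9:10080247-10080546, plus strand: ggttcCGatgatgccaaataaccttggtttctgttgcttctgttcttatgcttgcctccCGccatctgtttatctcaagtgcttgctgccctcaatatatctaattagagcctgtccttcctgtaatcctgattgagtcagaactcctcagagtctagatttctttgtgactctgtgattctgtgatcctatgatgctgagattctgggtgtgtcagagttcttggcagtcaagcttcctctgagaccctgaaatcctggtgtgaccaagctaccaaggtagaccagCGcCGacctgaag
Foxp1 intron, Gm52870 start, chr6:99204322-99204621, plus strand: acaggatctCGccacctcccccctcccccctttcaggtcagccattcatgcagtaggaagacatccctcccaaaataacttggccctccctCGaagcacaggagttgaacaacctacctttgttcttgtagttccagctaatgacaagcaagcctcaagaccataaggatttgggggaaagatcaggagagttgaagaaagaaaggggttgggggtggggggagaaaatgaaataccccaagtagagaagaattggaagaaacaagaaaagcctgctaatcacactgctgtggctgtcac
Hdac9 intron, Gm46347 start, chr12:34779620-34779919, minus strand: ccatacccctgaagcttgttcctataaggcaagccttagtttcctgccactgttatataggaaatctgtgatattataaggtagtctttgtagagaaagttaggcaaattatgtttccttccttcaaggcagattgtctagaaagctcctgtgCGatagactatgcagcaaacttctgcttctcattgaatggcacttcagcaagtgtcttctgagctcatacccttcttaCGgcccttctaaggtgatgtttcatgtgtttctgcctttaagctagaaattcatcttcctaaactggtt
Nxph1 promoter, chr6:8949769-8950068, plus strand: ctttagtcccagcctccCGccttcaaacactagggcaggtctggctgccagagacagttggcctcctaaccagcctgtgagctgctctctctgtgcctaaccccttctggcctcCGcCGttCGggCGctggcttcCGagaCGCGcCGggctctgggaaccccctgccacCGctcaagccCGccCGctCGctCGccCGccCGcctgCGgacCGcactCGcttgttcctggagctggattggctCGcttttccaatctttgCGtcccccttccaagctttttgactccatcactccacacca
The intronic peaks around the first 3 windows fell in cKO. At Cntn5, a neuronal adhesion gene, the peak went from 276 ± 41.8 to 184 ± 22.3 CPM (mean ± SD, n = 5 animals each), that is, reads scaled to a fixed total of reads in peaks with TMM factors (CPM). At Hdac9, a histone deacetylase gene, the peak went from 95.2 ± 24.0 to 60.8 ± 13.5 CPM. The promoter peak of Nxph1 held 782 ± 64.3 CPM in controls and 768 ± 51.6 in cKO, which is -0.03 ± 0.06 (SE) on the log2 scale with an edgeR adjusted p of 0.869.

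The part of all reads that lay in intronic peaks was smaller in cKO. Intronic peaks held 4.18, 4.91, 5.01, 5.33 and 5.65% of the reads in autosomal peaks in control replicates 1 to 5, and 4.07, 4.00, 4.58, 4.72 and 4.87% in the cKO animals. Within each batch every cKO animal lay below every control, with means of 4.54 and 4.03% in batch 1 and 5.33 and 4.73% in batch 2. Across batches the groups overlapped, since control replicate 1 lay below 3 cKO animals of batch 2. The mean difference over the batches was -0.56 percentage points, and it ran from -0.74 without control replicate 1 to -0.38 without control replicate 2. Promoter peaks held 77.5 ± 1.77% of these reads in controls and 78.8 ± 1.16% in cKO. Intronic peaks of 5 kb or more went from 2.87 ± 0.31 to 2.40 ± 0.22%, and those under 5 kb from 2.15 ± 0.25 to 2.05 ± 0.18%. These are shares of the reads in peaks, with no external reference used here, so a change common to all peaks would not appear. In whole retina, fewer marked cells and less mark per cell cannot be told apart.

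**Figure D1:**
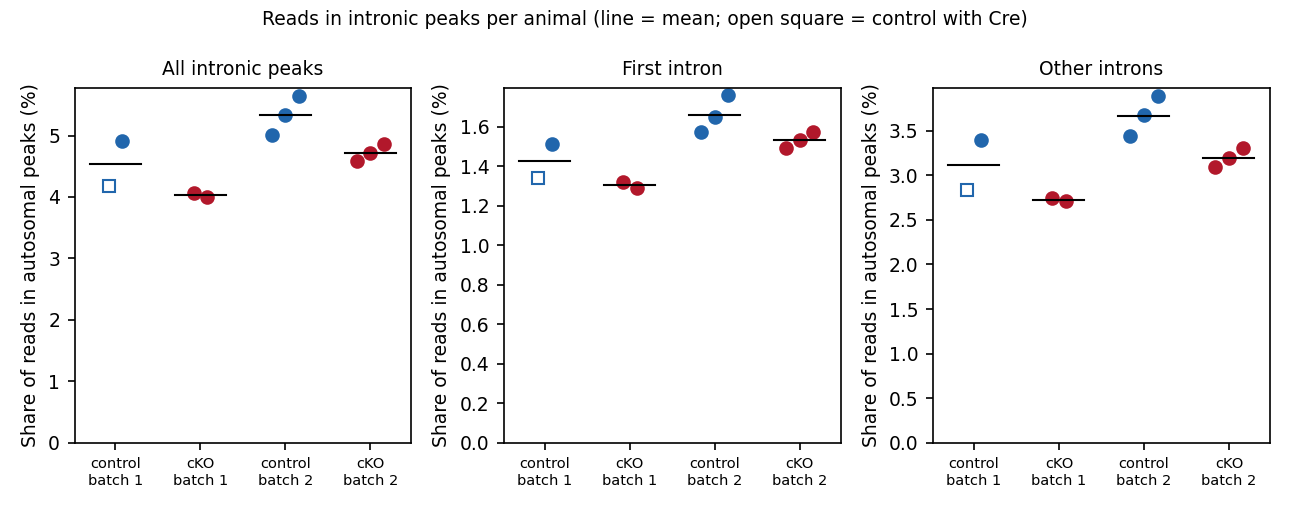
Share of the reads in autosomal peaks (%, axis from 0) that lay in intronic, first-intron and other-intron peaks, with 1 point per animal and a line at the mean of each genotype and batch. In all intronic peaks the 2 cKO animals of batch 1 sit at 4.07 and 4.00% and the open square, the control with Cre, at 4.18%, while the other control of that batch sits at 4.91%.

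Of the 2385 intronic peaks, 1882 held enough reads to be tested and 503 did not, all of the latter under 2 kb wide. At an edgeR adjusted p under 0.05, 293 of the 1882 fell in cKO (15.6%) and 13 rose (0.691%). Among all 16307 tested peaks, wherever they lay, 7.38% fell and 1.46% rose (8.84% in either direction). Intronic peaks made up 11.5% of the tested peaks, 24.3% of the peaks that fell and 5.46% of those that rose. The median log2 fold change was -0.07 for intronic peaks and 0.02 for all tested peaks. Promoter peaks fell in 4.26% of 8376 tests and intergenic peaks in 9.58% of 4737.

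The falls were moderate in size. The median of the 293 was 1.56-fold, with log2 fold changes from -1.73 to -0.24, and 30 fell by 2-fold or more. The lowest value belonged to a peak in intron 2 of the predicted gene Gm29536, with 28.8 CPM in controls and 8.43 in cKO (-1.73 ± 0.26, SE, edgeR adjusted p = 1.1e-04), named for that rank. Of the 293 peaks, 290 were below the control mean of their batch in 5 of 5 cKO animals, and 292 had the same sign in both batches. In 247 of them no cKO animal overlapped a control of its batch. The 293 peaks were selected by a test on these same values, so such counts follow largely from the selection. Lack of overlap within the batches, in the same or in different directions, was met by 12.8% of all tested peaks. For tested intronic peaks, called ones included, the share was 19.4%. Without a batch term 81 peaks fell and 1 rose. In batch 1 alone, with 2 animals against 2, none was called among its own tested peaks, and 10 fell when the peaks tested in all animals were used, whereas batch 2 alone gave 233 lower and 18 higher. A difference between the batches in the effect of genotype was called at none of the 1882 peaks with edgeR (106 at an unadjusted p under 0.05), against 0.0123% of all tested peaks.

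Without regard to level, the share that fell rose with width. Of intronic peaks under 2 kb, 46 of 747 fell (6.16%), of those from 2 to 5 kb 111 of 824 (13.5%), of those from 5 to 10 kb 88 of 224 (39.3%), and of those of 10 kb or more 48 of 87 (55.2%). The median log2 fold change went from -0.03 in the narrowest class to -0.05, -0.19 and -0.31 in the widest, whose 87 peaks were below 0 in 73 cases. Promoter peaks of the same 4 classes fell in 1.96, 2.84, 5.36 and 8.15% of tests, and intergenic peaks in 2.67, 7.54, 21.8 and 40.2%. Thus the share of intronic peaks that fell was above that of promoter peaks in every width class.

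**Figure D2:**
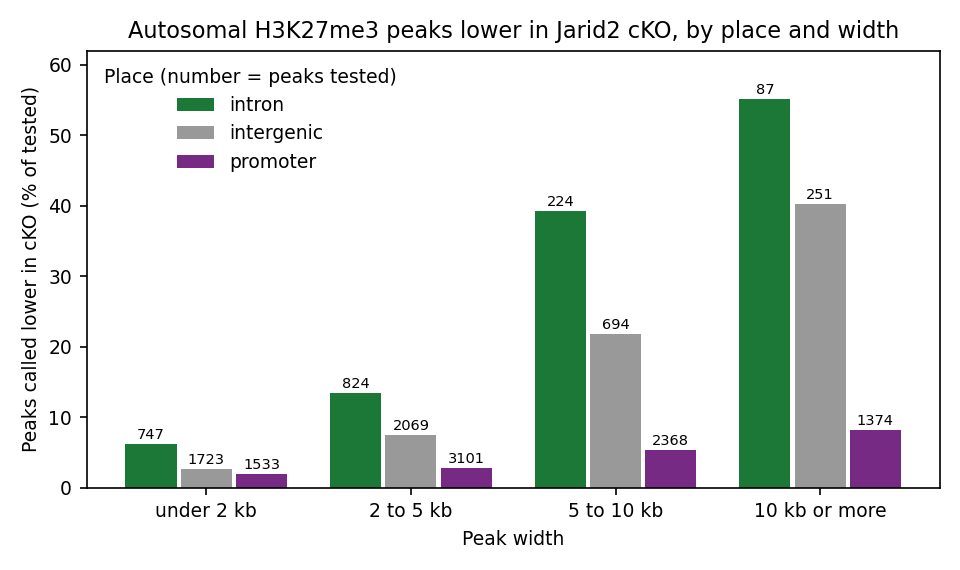
Percentage of tested autosomal peaks that fell in cKO (edgeR adjusted p under 0.05, axis from 0) in 4 width classes, for intronic, intergenic and promoter peaks, with the number tested above each bar. At 10 kb or more 55.2% of intronic peaks fell, against 40.2% of intergenic and 8.15% of promoter peaks.

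A wide peak also holds more reads, which makes a given fold easier to call. The median control level was 5.90 CPM in the narrowest class and 149 CPM in the widest, and the median fall among called peaks was -0.94 in the former and -0.47 in the latter. Peaks of like width and like level were therefore set side by side. Between 5 and 10 kb and above a mean log2 CPM of 5, 80 of 176 intronic peaks fell (45.5%), against 26.6% of 523 intergenic and 5.74% of 2108 promoter peaks. Between 2 and 5 kb and a mean log2 CPM of 4 to 5, the shares were 21.3% of 329, 10.4% of 836 and 3.11% of 1319. In that level range, intronic peaks of 5 to 10 kb fell in 8 of 48 cases (16.7%), a lower share than in the narrower class. From 3 to 4 the narrower class also had the higher share, with 10.1% of 189 peaks under 2 kb and 5.38% of 390 from 2 to 5 kb. Above a mean log2 CPM of 5 the order was the opposite. The shares were 26.5% of 68 (2 to 5 kb), 45.5% of 176 (5 to 10 kb) and 55.2% of 87 (10 kb or more). That range has no upper limit, and its median control level rose with width, at 42.4, 60.9 and 149 CPM. Width and level were thus not separated there. Mark per kb also rose with width, from a median of 4.53 CPM per kb in controls under 2 kb to 11.0 at 10 kb or more.

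First introns held a lower share of peaks that fell than other introns. In first introns 79 of 665 tested peaks fell (11.9%, median log2 fold change -0.02), and in other introns 214 of 1217 did (17.6%, median -0.09). By order, the share was 13.5% of 393 in intron 2, 18.3% of 219 in intron 3 and 20% of 605 in intron 4 or later. Within width classes first introns had the lower share in each, 5.7 against 6.4% under 2 kb, 9.12 against 16.1% from 2 to 5 kb, 33.3 against 42.1% from 5 to 10 kb and 52.2 against 56.2% at 10 kb or more. The difference between the 2 kinds of intron was not tested as such. First-intron peaks held 1.57 ± 0.16% of the reads in controls and 1.44 ± 0.13% in cKO, and other-intron peaks 3.45 ± 0.39 and 3.01 ± 0.27%.

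Distance from the TSS moved with the intron number. Under 10 kb from the TSS of the assigned gene 9.12% of 625 peaks fell, from 10 to 30 kb 12.5% of 678, from 30 to 100 kb 24.2% of 479 and at 100 kb or more 35.0% of 100. The median log2 fold change went from 0.03 through -0.05 and -0.20 to -0.36. Intergenic peaks at the same distances fell in 4.29, 7.23, 17.5 and 25.3% of tests. The share in first introns was below that in others under 10 kb (6.97 and 10.9%), from 10 to 30 kb (9.66 and 14.1%) and at 100 kb or more (3 of 13 peaks, 23.1%, and 32 of 87, 36.8%), and above it from 30 to 100 kb (26.0% of 127 and 23.6% of 352). At 100 kb or more from a TSS and 10 kb or more in width, 9 of 10 peaks fell. Under 10 kb from a TSS and under 2 kb in width, 12 of 268 did. Their median control levels were 233 and 5.58 CPM, and their median log2 fold changes -0.59 and 0.06. Level thus differed between these 2 classes as well, and distance was not crossed with level.

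**Figure D3:**
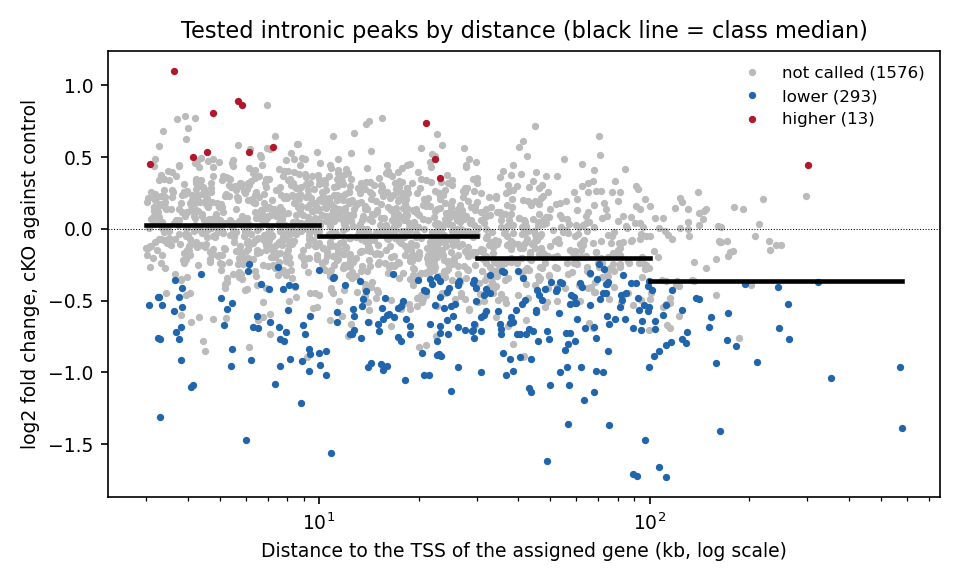
Log2 fold change (cKO against control) of the 1882 tested intronic peaks against distance to the TSS of the assigned gene (kb, log axis), with peaks that fell in blue, peaks that rose in red and black lines at the class medians. The medians step down from 0.03 under 10 kb to -0.36 at 100 kb or more, and 9 of the 13 higher peaks lie under 10 kb.

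The first 12 lower peaks, ranked by adjusted p with 1 peak per host gene, lay in genes of varied function. A peak in intron 1 of Mecom (chromosome 3, 30346500 to 30351790, mm10, 5291 bp), which encodes a zinc finger transcription factor, held 33.8, 42.8, 80.7, 88.6 and 75.2 CPM in control replicates 1 to 5 and 15.5, 16.5, 44.2, 43.7 and 41.4 CPM in the cKO animals. Both batches were lower in cKO with no overlap within a batch, and batch 1 was lower than batch 2 in either genotype. It fell by 0.999 ± 0.0958 (SE) on the log2 scale, at an edgeR adjusted p of 4.1e-06, with -1.21 in batch 1 and -0.90 in batch 2.

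In intron 3 of Klf12 (chromosome 14, 100066620 to 100074340), the gene of a Krüppel-like repressor, controls held 31.9, 65.4, 97.0, 102 and 97.8 CPM and cKO animals 11.7, 14.0, 44.6, 40.1 and 43.3 CPM. Control replicate 1 thus lay below the cKO animals of batch 2 but above those of its own batch. That is a 2.58-fold fall (-1.37 ± 0.14 on the log2 scale, SE), with an edgeR adjusted p of 6.4e-06. In intron 4 of Lmx1a (chromosome 1, 167799650 to 167822080), the gene of a LIM homeodomain factor, a peak of 22431 bp went from 246 ± 75.0 to 162 ± 47.8 CPM (-0.60 ± 0.07, SE, edgeR adjusted p = 1.2e-05).

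In intron 2 of Nxph1 (chromosome 6, 9060890 to 9078140), which encodes a secreted ligand of neurexins, controls held 156, 288, 337, 354 and 306 CPM and cKO animals 125, 128, 153, 161 and 152 CPM. The cKO animals of both batches lay between 125 and 161 CPM, and control replicate 1 lay within that range, above the cKO animals of its own batch, while the other 4 controls lay above it. The fall was -0.99 ± 0.11 (SE) on the log2 scale, at an edgeR adjusted p of 8.8e-06. In intron 1 of Lsamp (chromosome 16, 40631780 to 40648320), a membrane-anchored adhesion gene, the 3 controls of batch 2 held 294 to 296 CPM and the 3 cKO animals 182 to 191. In batch 1 the same peak held 160 and 224 CPM in controls and 98.6 and 98.2 in cKO, and the log2 difference was -0.94 in batch 1 and -0.67 in batch 2 (-0.77 ± 0.08, SE, edgeR adjusted p = 6.4e-06). In intron 2 of the cadherin gene Cdh8 (chromosome 8, 99369180 to 99372470) the level went from 41.9 ± 13.5 to 18.9 ± 8.82 CPM, a 2.2-fold fall. In intron 7 of Ptprd (chromosome 4, 77074480 to 77083340), which encodes a receptor phosphatase that organizes synapses, it went from 133 ± 37.1 to 77.6 ± 29.2 CPM, a 1.73-fold fall. A peak in intron 1 of Lrp1b (chromosome 2, 42576770 to 42589270), the gene of a lipoprotein receptor family member, went from 248 ± 41.9 to 154 ± 34.2 CPM (1.62-fold).

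The other 3 of the 12 lay in Akap6, the gene of a kinase anchoring protein, in Mir99ahg, the host transcript of a microRNA cluster, and in 1700020D12Rik. At Mir99ahg (chromosome 16, 77509740 to 77517750) the controls held 84.1 to 138 CPM and the cKO animals 59.1 to 69.5, and here the groups did not overlap across the batches either. At Akap6 (intron 12, chromosome 12, 53108720 to 53114190) the level went from 62.4 ± 22.0 to 31.7 ± 11.1 CPM, and at 1700020D12Rik (chromosome 12, 26609670 to 26617070) from 83.5 ± 38.8 to 39.6 ± 20.6 CPM. No mature miRNA or hairpin of the RefSeq table lay inside an intronic peak.

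**Figure D4:**
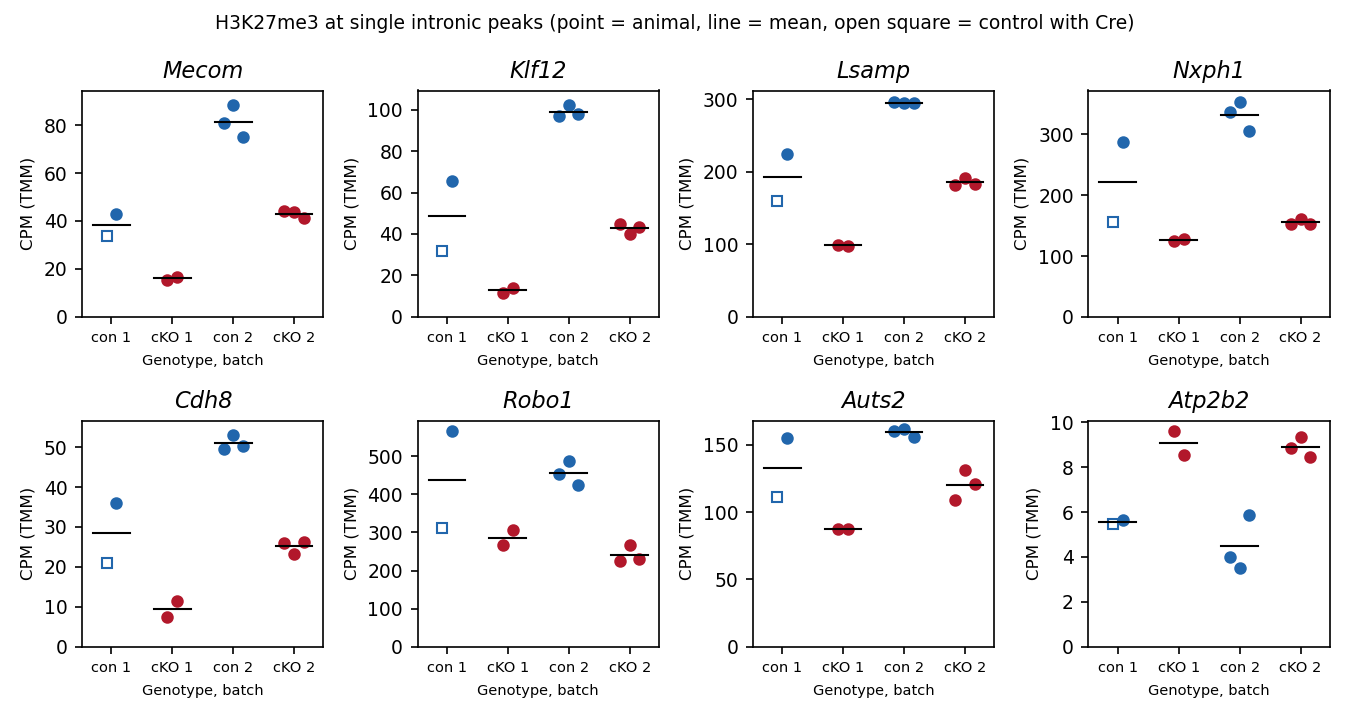
CPM (TMM-scaled, axes from 0) at single intronic peaks of 8 host genes, with 1 point per animal, lines at the mean of each genotype (con, control) and batch, and an open square for the control with Cre. In the first 7 genes each cKO animal lies below each control of its batch (Klf12, 11.7 and 14.0 against 31.9 and 65.4 CPM in batch 1), and in Atp2b2 each lies above.

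In control replicate 1, the animal with 1 floxed allele and Cre, the peaks that fell in cKO were mostly lower than in the other control of its batch. It lay below control replicate 2 at 277 of the 293 lower peaks (94.5%), at 63.8% of all tested intronic peaks and at 49.8% of all tested peaks. Set against control replicate 2 of the same litter, which had no Cre, its median log2 difference at the 293 peaks was -0.45, while the 2 cKO animals of that batch were at -0.97 and -0.87 against the same animal. Over all tested peaks these 3 medians were 0.00, 0.01 and 0.02. The 2 controls of batch 1 also differed in sex, each genotype is a single animal there, and the batch 2 controls had no Cre, so Cre, the single allele, sex and the individual cannot be told apart. The 293 peaks were called with both controls in the comparison. Without control replicate 1, 312 intronic peaks fell and 17 rose, and without control replicate 2, 245 fell and 10 rose.

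Several host genes held a run of lower peaks. Of 1137 host genes with a tested intronic peak, 193 held at least 1 that fell and 13 at least 1 that rose, and of 82 hosts with 4 or more tested peaks, 52 held at least 1 that fell. A host with more tested peaks has more chances to hold a lower one, so the 52 of 82 is not read as an excess. Peaks of a gene share a chromatin domain and are not independent of each other. In Auts2, a regulator of transcription in developing neurons, 9 of 11 tested peaks fell, in introns 1, 2, 4 and 5, with log2 fold changes from -0.72 to -0.31 over the 11. The one with the smallest p (chromosome 5, 132001700 to 132014310, intron 4) held 111, 155, 160, 162 and 156 CPM in controls and 87.4, 87.2, 109, 131 and 121 in cKO. Within a batch the groups did not overlap, and the fall was -0.47 ± 0.08 (SE) on the log2 scale, at an edgeR adjusted p of 5.8e-04.

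Of the hosts with 4 or more tested peaks, 2 had every one called lower. In Atp8a2, which encodes a phospholipid flippase of neurons, 5 of 5 fell, and the 3 in intron 32 had log2 fold changes of -1.71, -1.72 and -1.47, against -0.71 and -0.53 for the 2 in intron 23. The largest of the intron 32 peaks (chromosome 14, 59739110 to 59746550) held 20.9, 68.0, 60.8, 78.1 and 70.2 CPM in controls and 12.3, 17.5, 23.3, 23.2 and 30.1 CPM in cKO. The control with Cre lay with the cKO animals there, and the other 4 controls lay above all of them. In Plekha6, 5 of 5 peaks in intron 3 fell, from -1.05 to -0.61.

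Lrmda, the host with the most intronic peaks, had 8 of 21 tested peaks called lower and 20 of 21 below 0. A peak in its intron 2 (chromosome 14, 22436230 to 22443590) went from 86.7 ± 14.5 to 58.4 ± 11.3 CPM (-0.57 ± 0.08, SE, edgeR adjusted p = 4.8e-05). In Sox5, an HMG-box factor gene, 6 of 13 fell, the largest of them (intron 4, 21651 bp) from 330 to 272 CPM, a log2 fold change of -0.28. In Robo1, the receptor of Slit ligands, 5 of 8 fell. Its peak of 27081 bp in intron 2 (chromosome 16, 72819800 to 72846880), the second widest intronic peak, held 311, 566, 454, 487 and 423 CPM in controls and 268, 305, 225, 268 and 230 CPM in cKO (-0.79 ± 0.11, SE, edgeR adjusted p = 7.7e-05). All controls lay above all cKO animals at that peak.

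Foxp1, a forkhead factor gene of early retinal progenitors, held 3 tested intronic peaks, and all 3 fell. The widest (intron 2, chromosome 6, 99198980 to 99209210) held 93.1, 108, 198, 177 and 164 CPM in controls and 32.5, 41.1, 122, 123 and 99.7 in cKO, a fall of 1.82-fold with an edgeR adjusted p of 3.2e-05. On the log2 scale the difference was -1.43 in batch 1 and -0.65 in batch 2, and the test of that difference gave an edgeR adjusted p of 0.329 (unadjusted 4.7e-04). A second peak of intron 2 (99187350 to 99192610) went from 60.3 ± 16.9 to 39.1 ± 16.5 CPM (-0.64 ± 0.10). The third, in intron 3 (99103840 to 99105900), went from 8.74 ± 2.83 to 5.08 ± 3.29 CPM with an edgeR adjusted p of 0.049, and its call was lost in 16 of 24 alternative settings, with adjusted p up to 0.253 (no batch term).

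Among regulators of retinal cell types, lower peaks were found in Foxp1, the only early progenitor regulator with an intronic peak, and in lists for differentiating cells. The lists were chosen with earlier results of these data known, and their counts stand beside the 15.6% of all tested intronic peaks that fell. Their host counts stand beside 193 of all 1137 tested hosts. Hosts with more tested peaks have more chances to hold a lower one. Most lists are not matched to all intronic peaks in width or distance (median 2440 bp and 36.7 kb from a TSS for forkhead and Sox genes, 2870 bp and 60.7 kb for adhesion genes), and wider and more distant peaks fell more often, so the 15.6% is not a like-for-like level. Foxp1 was the only host of the 19 early progenitor regulators. Of 20 photoreceptor and bipolar regulators 3 were hosts, and 6 of their 13 tested peaks fell, 4 of them in the orphan receptor gene Esrrg and 2 in the nuclear receptor gene Rora. At Esrrg (intron 3, chromosome 1, 187910450 to 187929070) the level went from 292 ± 90.4 to 179 ± 84.2 CPM, with -1.17 in batch 1 and -0.56 in batch 2. At Rora (intron 1, chromosome 9, 68681750 to 68702680) it went from 226 ± 32.0 to 173 ± 28.1 CPM (-0.39 ± 0.07, SE, edgeR adjusted p = 6.0e-04). Esrrb, the other host, held 81.9 ± 6.86 and 72.7 ± 10.8 CPM at its peak with the smallest p (edgeR adjusted p = 0.164).

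Of the ganglion, amacrine and horizontal cell regulators, 4 of 10 tested peaks fell, in 4 of 5 tested hosts, among them Ebf3 and Meis2. The Ebf3 peak (intron 6, chromosome 7, 137248060 to 137252360) held 24.9 to 34.0 CPM in controls and 11.7 to 22.1 in cKO, and the Meis2 peak (intron 7, chromosome 2, 116008330 to 116011250) 16.9 to 27.1 and 12.8 to 15.6 CPM. Neither pair of ranges overlapped. None of the 6 tested peaks of late progenitor and glial regulators was called, and the nuclear factor I genes Nfia, Nfib and Nfic had edgeR adjusted p of 0.116, 0.601 and 0.354. Of the 6 tested peaks in genes of pigment epithelium, lens, vessel, microglia and mesenchyme none was called, with a median log2 fold change of -0.01. Mitf, Flt1 and Spi1, of pigment epithelium, vessels and microglia, had values of -0.20 ± 0.18, 0.26 ± 0.26 and 0.06 ± 0.12 (SE).

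In forkhead and Sox genes with long introns 14 of 28 tested peaks fell (50.0%, median log2 fold change -0.46), of which 3 lay in Foxp1, 6 in Sox5, 4 in Sox6 and 1 in a further gene. The Sox6 peak with the smallest p (intron 2, chromosome 7, 115869200 to 115872410) went from 27.4 ± 8.33 to 13.7 ± 2.34 CPM, a 1.98-fold fall. In the list of zinc finger and other regulators 31 of 97 fell (32.0%, median -0.32) in 12 of 23 tested hosts, and 90 of the 97 were below 0. Besides Mecom and Klf12 it held Zfhx4, whose peak in intron 4 (chromosome 3, 5344340 to 5355390) went from 93.5 ± 25.5 to 50.7 ± 18.6 CPM.

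Genes of axon guidance had 10 of 43 tested peaks lower (23.3%) and those of neuronal adhesion 18 of 59 (30.5%). The lower peaks lay in 5 of 15 tested hosts of axon guidance and in 11 of 20 of adhesion. Of the 10 in axon guidance genes, 5 lay in Robo1, where 8 peaks were tested, while Slit3 had 1 of 13 lower. Besides Robo1, a peak in intron 12 of the netrin receptor gene Unc5c (chromosome 3, 141808780 to 141813290) went from 43.5 ± 10.4 to 26.0 ± 5.26 CPM and one in intron 4 of the Slit ligand gene Slit3 (chromosome 11, 35271580 to 35278500) from 67.8 ± 14.0 to 45.4 ± 14.1 CPM. The widest intronic peak of all, 39291 bp in the same intron of Slit3 (35443490 to 35482780), held 539 ± 35.8 and 486 ± 15.7 CPM and was not called (-0.15 ± 0.06, SE, edgeR adjusted p = 0.158). Of genes of ion channels and neurotransmitter receptors 12 of 53 peaks fell (22.6%). Examples were Grin3a, an NMDA receptor subunit (intron 1, 324 ± 59.2 to 209 ± 68.0 CPM), the adrenergic receptor gene Adra1b (118 ± 21.1 to 74.7 ± 19.1 CPM) and Kcnip4, a potassium channel partner (118 ± 21.7 to 76.3 ± 16.4 CPM).

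Genes of WNT, FGF, BMP and TGF-beta signalling had 1 of 24 tested peaks lower (4.17%, median -0.08), but 17 of the 24 lay in Fgfr2 and only 5 hosts were tested. The lower peak was annotated to an intron of an Fgfr2 transcript (chromosome 7, 131462260 to 131469200) but its centre lay outside the RefSeq body of Fgfr2, and it went from 79.5 ± 9.0 to 62.1 ± 12.2 CPM (-0.36 ± 0.08, SE, edgeR adjusted p = 0.00339). Ror2 and Fgf12, of the WNT and FGF families, had -0.33 ± 0.18 and 0.07 ± 0.15. The counts of these lists are descriptions, and differences between lists were not tested.

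Only 13 intronic peaks rose, 1 of them 2-fold or more. On the values that selected them, all 13 were above the control mean of their batch in 5 of 5 cKO animals. Their log2 fold changes ran from 0.35 to 1.10, with a median of 1.45-fold. By mean log2 CPM, 3 of the 13 lay under 3, 5 from 3 to 4, 3 from 4 to 5 and 2 above 5. The peak with the smallest adjusted p was in intron 3 of the calcium pump gene Atp2b2 (chromosome 6, 113897230 to 113898690, 1461 bp). It held 5.48, 5.66, 3.98, 3.53 and 5.89 CPM in controls and 9.59, 8.52, 8.84, 9.35 and 8.47 CPM in cKO. All cKO animals lay above all controls, a 1.86-fold rise with an edgeR adjusted p of 0.00452. The call at Atp2b2 was lost in 4 of 25 alternative settings, DESeq2 among them, with an edgeR adjusted p up to 0.471 (batch 1 alone). The only higher peak over 50 CPM among the 8 named was in intron 12 of Nav2, a cytoskeletal regulator of growing neurons (chromosome 7, 49518800 to 49524980), with 82.6, 88.1, 47.8, 59.6 and 56.2 CPM in controls and 107, 107, 69.9, 77.1 and 63.5 in cKO. Its 2 genotypes did not overlap within a batch (0.35 ± 0.08, SE, edgeR adjusted p = 0.00549). The call at Nav2 was lost in 4 of 25 alternative settings, with an edgeR adjusted p up to 0.326 (no batch term).

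The other named higher peaks lay in Gm5373 (6.62 ± 0.51 to 11.4 ± 3.17 CPM), S100a13 (13.9 ± 1.36 to 19.7 ± 2.47), Slc35f3 (2.5 ± 0.97 to 5.35 ± 1.15), Spock1 (33.1 ± 5.93 to 44.8 ± 5.93), Bola1 (17.0 ± 1.32 to 23.0 ± 4.83) and Zfp866 (5.14 ± 2.35 to 8.93 ± 1.73). At Spock1, the gene of a matrix proteoglycan, control replicate 1 (40.3 CPM) lay above cKO replicate 1 (35.2 CPM), and the groups overlapped within a batch at Gm5373 and Zfp866 too. Several of these calls were lost under other settings, in 12 of 25 at Zfp866 (edgeR adjusted p up to 0.735) and 11 of 25 at Bola1 (up to 0.856). At S100a13 (up to 0.512) and Spock1 (up to 0.721) the call was lost in 8 of 25 each. At Gm5373 (up to 0.776) it was lost in 5 of 25 and at Slc35f3 (up to 0.64) in 3 of 19. These highest values came from batch 1 alone, at S100a13, Gm5373 and Slc35f3 with the peaks tested in all animals. With DESeq2 1 intronic peak rose. Without control replicate 4 5 rose, without cKO replicate 5 6, without control replicate 3 7 and without cKO replicate 4 8.

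To compare intron and promoter in the same animals and the same genes, the reads of all intronic peaks of a gene were set against those of all its promoter peaks. Of 765 genes with both, 595 had enough reads. In 56 the intronic mark fell relative to the promoter mark (9.41%) and in 7 it rose (1.18%), at an edgeR adjusted p under 0.05, 10.6% in all, and 116 had an unadjusted p under 0.05. Over the 595 genes the median difference was -0.03, and 326 were below 0. In the 56 genes, which the same test selected, the median log2 difference between genotypes was -0.66 at introns and -0.07 at promoters, and the promoter difference was above 0 in 13.

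Nxph1 had the smallest p. Its intronic reads were 0.182, 0.352, 0.434, 0.459 and 0.446 of its promoter reads in controls and 0.154, 0.156, 0.195, 0.224 and 0.215 in cKO. The ratio was lower in each cKO animal than in each control of its batch, and the difference was -0.95 ± 0.10 on the log2 scale (SE, edgeR adjusted p = 2.2e-12). At Grin2b, an NMDA receptor subunit gene, introns went from 34.9 ± 13.8 to 16.8 ± 9.30 CPM and the promoter held 195 ± 15.9 and 188 ± 13.0. At Esrrg introns went from 498 ± 130 to 312 ± 127 CPM and promoters from 474 ± 36.8 to 434 ± 17.6. At Ptprd introns went from 190 ± 52.9 to 104 ± 32.6 and promoters from 132 ± 6.93 to 117 ± 7.98. At Lclat1, the gene of an acyltransferase of membrane lipids, introns went from 31.8 ± 9.54 to 16.1 ± 8.28 CPM and the promoter from 24.1 ± 3.70 to 27.8 ± 6.09. Each of these 5 genes had its ratio below the control mean of the batch in 5 of 5 cKO animals.

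In the 7 genes with the opposite result (Dock2, Sema3a, Slit2, Cacna1a, Mamdc2, Kcnmb2 and 1700008C04Rik, named because they are few), the promoter difference was below 0 in all 7 and the intronic difference above 0 in 4. At Slit2, a guidance ligand gene, promoters differed by -1.47 and introns by -0.46 on the log2 scale. The test allows the ratio of intron to promoter to differ between the batches, and without that term edgeR called no gene in either direction. Without control replicate 3 no gene had a relative rise at introns, and without control replicate 2 or cKO replicate 4 there was 1. Without cKO replicates 1, 2 and 5 there were 2, 2 and 4.

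**Figure D5:**
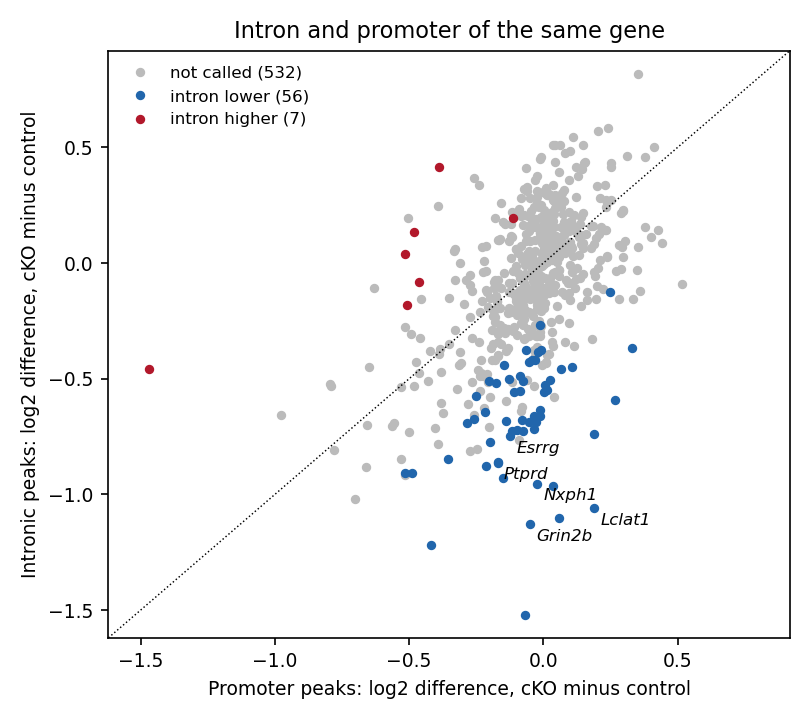
Log2 difference between cKO and control at intronic peaks (vertical axis) and at promoter peaks (horizontal axis) of the same gene, 1 point per gene for 595 genes, with genes called lower or higher at introns relative to promoters in colour and a dotted line of equal differences. The 56 genes in blue lie below the line with promoter values near 0 (median -0.07) and intronic values around -0.66.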

How the data were processed

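H3K27me3 CUT&RUN, in which an antibody-tethered nuclease frees the DNA beside marked nucleosomes, was read as deposited counts of reads or fragments per peak, with a column for each of 16 libraries. The 6 IgG libraries of the 22 were not analysed here. The build was mm10, and the tools listed, without their order, were DESeq2 1.38.1, MACS2, SAMtools and Novoalign 4.02.02 (submitters' processing notes). The sources used here do not say how reads were counted or the peak set built.

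Counts of technical duplicates, whose chi-square ratio to the degrees of freedom (0.88 to 0.997, against 1.05 to 2.53 for pairs of animals) was that of read sampling, were summed per animal. The whole table was fitted with edgeR 4.0.16 in R 4.3.3 (filterByExpr, TMM factors, quasi-likelihood test, batch as a term, Benjamini-Hochberg adjustment over 16307 peaks). The SE is the log2 fold change divided by the square root of F. The within-gene test took intronic and promoter sums of an animal as a pair, with animal as a block and place by batch as a term, for genes with a mean of 10 reads or more at both places. Host genes came from the transcript named in the annotation (2038 peaks), a RefSeq coding body (149), another RefSeq body (75) or the deposited gene (123). The steps were tested on simulated data.

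Named peaks are, by smallest adjusted p with both batches alike in sign and 1 per host, 12 lower and 8 higher ones, the 6 hosts with most calls, all Foxp1 peaks, up to 3 hosts by p from each of the 11 lists with at least 3 hosts, the 3 widest and 3 densest peaks, and the 6 first genes of the within-gene test. The members, lists and rules were chosen with earlier results of these data known. Alternatives were other scalings, filters, tests, batch and sex terms, a replicate block, each batch, each duplicate, other gene assignments and leaving out each animal, and use of the peaks of all animals in batch 1 was chosen after seeing the data. DESeq2 1.42.0 and limma 3.58.1 served as other tests. 1 gene that these rules name is not reported here.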

Additional observations from a re-analysis of the deposited data

Results flagged for a closer look

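At 4 named peaks a single control animal stood apart from the other 4 controls by a gap of more than 0.71 of the range of the group. At the Unc5c peak control replicate 1 held 25.4 CPM and the other controls 44.0 to 50.7. At the Auts2 peak control replicate 1 held 111 CPM and the others 155 to 162. At the Flt1 peak control replicate 1 held 1.99 CPM and the others 4.31 to 4.98. At the S100a13 peak control replicate 3 held 16.3 CPM and the others 12.9 to 13.6. Chance gives such a gap in about 1 in 20 groups, and 124 groups were examined. Control replicate 1 is the animal with Cre and 1 floxed allele, and the Unc5c and Auts2 peaks fell in cKO while the Flt1 peak was not called.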

How the results depend on the processing

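Under the planned settings the number of intronic peaks that fell was within 1.5 times 293 (204 with DESeq2 to 314 with sex as a further term), except without a batch term (81) and in batch 1. DESeq2 gave 1 higher peak and 41 lower first-intron peaks, total counts in place of TMM gave 21 higher (1013 lower and 467 higher over all peaks, against 1204 and 238), the first technical duplicate alone 3 higher and 49 lower in first introns, the second 8 higher, an adjusted p under 0.01 gave 3 higher and 46 lower in first introns, and peaks over 5 kb from a TSS held 8 higher. Without a batch term 1 peak rose, 18 fell in first and 63 in other introns, and the widest class exceeded the narrowest by 16 percentage points in place of 49. Batch 1 alone gave 0 for each of these, with 0 calls over all peaks. With the peaks tested in all animals, batch 1 gave 10 lower and 0 higher, 6 in first and 4 in other introns, and a width difference of 8.05 points. Width quartiles gave 25.9 points. The within-gene test gave 31 lower and 2 higher in batch 2 alone, 4 higher with the deposited gene assignment, and 0 and 0 with no place by batch term. A batch difference was called at 1 peak with total counts. Leaving out single animals gave 245 to 312 lower and 5 to 17 higher peaks, 61 to 83 in first and 184 to 229 in other introns, a width difference of 46.7 to 52.3 points, 41 to 59 lower and 0 to 9 higher genes, 0 to 2 batch differences and a share difference of -0.739 to -0.378 points. Of 42 named peaks that were called, none was called in batch 1 alone (40 were tested there), 29 lost the call without a batch term and 7 each with DESeq2, with the first duplicate and without control replicate 4. Signs changed only at named peaks that were not called: Spi1 (-0.0508 in batch 2, -0.00492 with the second duplicate, -0.00706 and -0.0314 without control replicates 2 and 3, 0.138 without control replicate 4 and up to 0.238 in batch 1 alone), Gm11266 (0.00244) and Nfib (0.0625) in batch 2, Fgf12 (-0.0805 with the second duplicate) and Gm35867 (-0.00563 without control replicate 5 and -0.00122 without cKO replicate 3, up to 0.118 without control replicate 3). The causes were not tested.

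Replicate numbers showed no pairing of the animals in batch 2 (correlations of same-numbered animals 0.0942, 0.0141 and 0.0365). Batch 1 cannot decide this. With 2 animals per genotype its same-numbered and cross-numbered values mirror each other (-0.444 and 0.444), and its same-numbered animals differed in sex. With the number as a replicate block 288 intronic peaks fell and 11 rose, 75 in first and 213 in other introns, 1203 and 219 over all peaks, and the within-gene test gave 65 lower and 10 higher. Depth limits the narrow peaks: 503 of 1250 under 2 kb were not tested.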

Other observations

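Some host genes with many intronic peaks held none that fell. Camta1, the gene of a calmodulin-binding transcription activator, had 14 tested peaks with log2 fold changes from -0.31 to 0.45 (median 0.11) and no call. Of 82 hosts with 4 or more tested peaks, 29 had every value below 0, 5 had every value above 0 and 26 had no called peak. The 5 with every value above 0 were Gm33037 (7 peaks), Xkr6 (7), Atp2b2 (5), Myo3b (5) and Fam189a1 (4), and among them 1 peak of Atp2b2 was called. These genes were named after their values were seen.

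The 3 intronic peaks with the highest density of reads were not called. The densest, in Gm11266 (30.3 CPM per kb in controls), held 308 ± 50.7 and 291 ± 20.6 CPM, the next in Cradd 179 ± 17.6 and 156 ± 8.38, and the third in Gm35867 142 ± 15.7 and 148 ± 14.0, with edgeR adjusted p of 0.585, 0.0674 and 0.706. The Cradd peak was below the control mean of its batch in 5 of 5 cKO animals and was called lower in 3 of 25 alternative settings, and peaks nearly as dense fell, such as Cdkal1 (21.1 CPM per kb), Lrp1b and Grin3a (both 19.9). The third widest peak, in Cdkal1 (25191 bp), went from 530 ± 19.7 to 449 ± 50.0 CPM (edgeR adjusted p = 0.023), and lost its call in 9 of 25 alternative settings, with adjusted p up to 0.476 (batch 2 alone). Peaks in hosts with a promoter peak of their own fell in 17.2% of 1188 tests and those in hosts without one in 12.8% of 694. Peaks whose centre lay in a RefSeq coding gene fell in 17.6% of 1395 tests and the others in 9.86% of 487.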
